A study of Mus musculus with 2 samples.

Results

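The 8 genes described here, Slbp, Npat, Casp8ap2, Lsm10, Lsm11, Zfp473, Eri1 and Cpsf3, encode factors that switch on, cut or degrade replication-dependent histone mRNAs. They were taken by symbol from 55414 genes, by their known roles and by no measured value, though earlier results of these data were known. The data are droplet-based RNA-sequencing of single C2C12 nuclei, C2C12 being an established line of mouse myoblasts, and molecules were counted by unique molecular identifiers (UMIs). The in situ polyadenylated library (yPAP) came from nuclei incubated with yeast poly(A) polymerase, which adds adenines to free RNA 3′ ends, for 25 min at 37 °C. The standard library came from nuclei of the same line processed without the enzyme and without that incubation, so enzyme and incubation cannot be told apart. Each group had 1 library, so no test between the libraries was possible, and every interval below covers counting error only.

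Replication-dependent histone mRNAs are made in S phase and, unlike other mRNAs, end in a stem-loop and not in a poly(A) tail. Npat switches on histone transcription in nuclear foci at the histone gene clusters, the histone locus bodies, where Casp8ap2 (also called FLASH) also resides. Slbp binds the stem-loop, the U7 snRNP binds the pre-mRNA downstream of it, and the endonuclease Cpsf3 cuts between them. The mRNAs of these factors are themselves ordinary polyadenylated transcripts.

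The target of Slbp and Eri1 is shown for the 3 histone genes with the most UMIs in the in situ polyadenylated nuclei, with the 16-base stem-loop consensus in capitals and 5 flanking bases on each side.
H1f3, GRCm39 chr13:23739956-23739981, plus strand: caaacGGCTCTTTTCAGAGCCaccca
H1f4, GRCm39 chr13:23805760-23805785, minus strand: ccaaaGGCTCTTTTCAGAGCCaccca
H1f2, GRCm39 chr13:23923490-23923515, plus strand: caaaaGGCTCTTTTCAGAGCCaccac

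The consensus was found in the canonical GENCODE transcript of 41 of the 64 replication-dependent histone genes and in 0.450% of 21770 canonical protein-coding transcripts. It was found in 0 of the 8 factors, which a share this low would also give. Whole transcripts were searched for it, and the 3 shown end 4884, 1153 and 840 bases before the annotated transcript end. Poly(A) signals were searched too: the hexamer AATAAA or ATTAAA stood in the last 50 bases of the canonical transcript of 7 of 8 factors, near the 70.5% of protein-coding transcripts. It also stood there in 13 of the 64 histone genes. For the signal, only these letters and this window were searched. The signals of Slbp, Casp8ap2 and Lsm10 are shown with the bases up to the annotated transcript end, since the first 2 carry the most UMIs per kilobase and Lsm10 has the ATTAAA form. Capitals mark the hexamer.
Slbp, GRCm39 chr5:33797399-33797425, minus strand: AATAAAgaccctttaactgacttgtaa
Casp8ap2, GRCm39 chr4:32653241-32653265, plus strand: AATAAAaacatgaagtcctgtttta
Lsm10, GRCm39 chr4:125995303-125995324, plus strand: ATTAAAggtgcgtgccaccact

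The RNA partner of Lsm10 and Lsm11 is the U7 snRNA, encoded by Rnu7, which has no natural poly(A) tail. It is shown whole, 62 bases, with the site that the Sm-type ring binds in capitals.
Rnu7, GRCm39 chr6:124718188-124718249, minus strand: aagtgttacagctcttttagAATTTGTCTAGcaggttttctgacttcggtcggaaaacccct
Rnu7 had 0 UMIs in the nuclei of either library, which allows up to 3 UMIs in each. Its 62 bases lie within Gm45234 and Grcc10 on the same strand, which held between 0 and 2 UMIs, so reads of the 3 genes may not be separable.

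The STAR matrix of whole UMIs was read first, over barcodes with more than 750 UMIs in the kallisto matrix. That left 1328 in situ polyadenylated and 1123 standard nuclei, with 0 barcodes in common. The median depth was 6787.5 UMIs (quartiles 4913.5 and 9859.5) and 4478 UMIs (quartiles 3770.5 and 5817). Protein-coding mRNA made up 27.5% of the UMIs of in situ polyadenylated nuclei and 74.5% of those of standard nuclei, and the median protein-coding gene lay at a log2 ratio of -1.92 in UMIs per 1000000 UMIs (CPM). Ratios between libraries are therefore given relative to that median (7752 genes). Of 8 myoblast markers, all had UMIs in both libraries, with Vim at 2554 and 3561 UMIs and Myod1, a muscle-determining factor, at 54 and 60. Of 9 markers of blood, endothelial, epithelial, glial and neuronal cells, 2 reached 20 UMIs: Pecam1 (70 and 53) and Rbfox3 (105 and 43, but 0 in the kallisto matrix of either library).

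All 8 factors were detected in both libraries, Casp8ap2 and Npat most and Lsm10 and Zfp473 least. Together they held 788 UMIs in in situ polyadenylated nuclei and 1982 UMIs in standard nuclei. A UMI of at least 1 factor was found in 39.8% of nuclei with polymerase and 75.96% of standard nuclei, and 135 and 424 nuclei held UMIs of at least 2 of them. The most factor UMIs in a single nucleus was 7 with polymerase and 14 in the standard library, and the most factors seen in a single nucleus was 5 and 8. Across nuclei the counts were close to Poisson, with a variance over mean between 0.985 and 1.249 apart from Casp8ap2 in standard nuclei at 1.66.

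The transcription and locus-body factors were the most abundant. Casp8ap2, which binds Lsm11 and helps recruit the cleavage machinery, had 328 UMIs in in situ polyadenylated nuclei (28.4 CPM, interval 25.4 to 31.7) and 863 in standard nuclei (138 CPM, 129 to 148). It was found in 20.03% (17.9 to 22.3) and 47.1% (44.2 to 50.1) of nuclei. Npat, the cyclin E-Cdk2 substrate of the locus body, had 131 UMIs (11.3 CPM, 9.49 to 13.5) and 352 UMIs (56.4 CPM, 50.7 to 62.6). It was seen in 9.41% and 24.4% of nuclei. These were the deepest-measured members, and the intervals of both genes leave out the values of every other member within each library.

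The stem-loop binders and the nuclease came next. Slbp had 103 UMIs (8.92 CPM, 7.28 to 10.8) and 230 UMIs (36.9 CPM, 32.3 to 41.96), in 7.38% and 17.6% of nuclei. Cpsf3, the endonuclease that also cuts ordinary pre-mRNAs before polyadenylation, had 102 UMIs (8.83 CPM, 7.20 to 10.7) and 227 UMIs (36.4 CPM, 31.8 to 41.4). Slbp and Cpsf3 could not be told apart in CPM in either library. Eri1, a 3′ exonuclease that binds the stem-loop and takes part in histone mRNA decay, had 64 UMIs (5.54 CPM) and 174 UMIs (27.9 CPM).

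The proteins particular to the U7 snRNP were the least seen. Lsm11, which with Lsm10 replaces a pair of the Sm proteins of spliceosomal snRNPs, had 46 UMIs (3.98 CPM) and 85 UMIs (13.6 CPM), in 3.24% and 6.86% of nuclei. Lsm10 had 8 UMIs (0.693 CPM, 0.299 to 1.37) and 34 UMIs (5.45 CPM, 3.77 to 7.62). Zfp473, a zinc finger protein that links the U7 snRNP to the stem-loop complex, had 6 UMIs (0.520 CPM, 0.191 to 1.13) and 17 UMIs (2.73 CPM, 1.59 to 4.36), never more than 1 in a nucleus. For Lsm10 and Zfp473 the depth allows no statement on single nuclei.

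**Figure D1:**
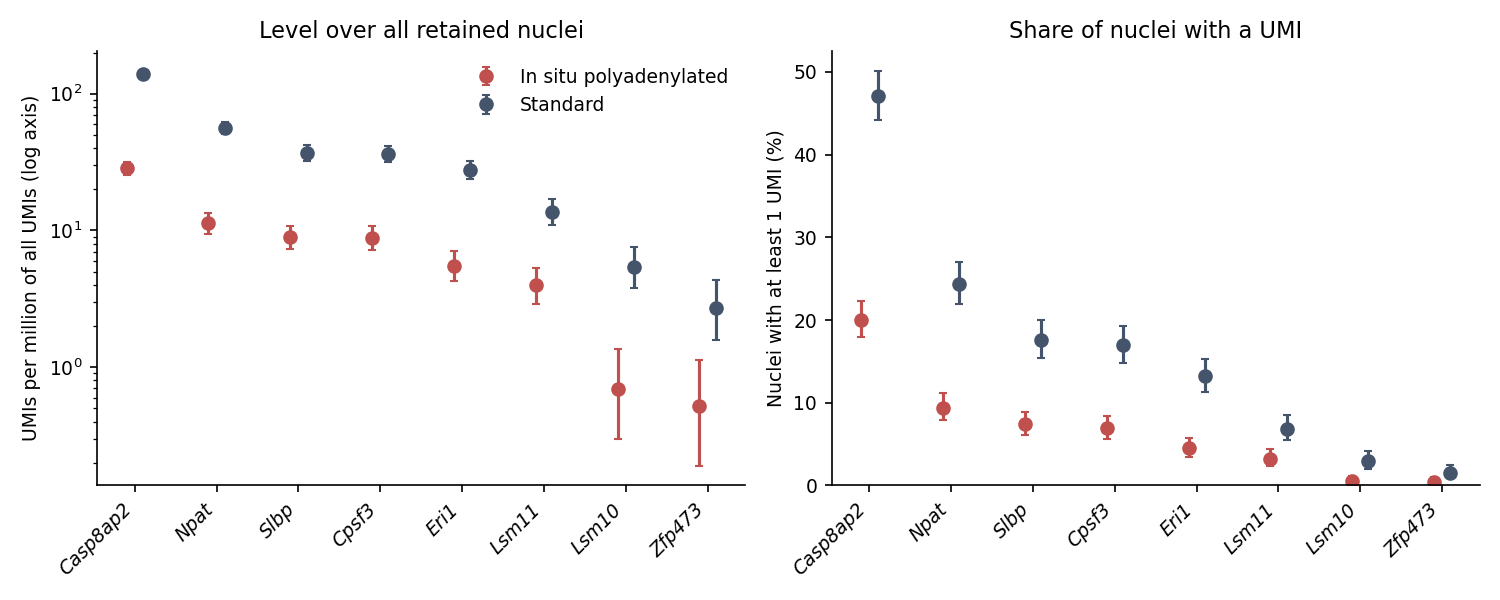
Levels of the 8 factors in in situ polyadenylated (red) and standard (dark blue) nuclei: CPM over retained nuclei on a log axis (left) and the percent of nuclei with at least 1 UMI (right), with 95% counting intervals. Casp8ap2 lies highest in both libraries, at 28.4 and 138 CPM, and Zfp473 lowest, at 0.520 and 2.73 CPM.

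Since STAR counts can take in intronic reads, genes were set against each other in CPM per kilobase of gene body. Casp8ap2 led at 0.751 and 3.66 CPM per kilobase, followed by Slbp at 0.505 and 2.09, and Zfp473 was last at 0.0266 and 0.139. The ratio of Casp8ap2 to Slbp was 0.57 on the log2 scale (0.25 to 0.91) in in situ polyadenylated nuclei and 0.81 (0.60 to 1.03) in standard nuclei. Below Slbp came Npat (0.294 and 1.46), Cpsf3 (0.296 and 1.22), Lsm11 (0.239 and 0.816), Eri1 (0.179 and 0.901) and Lsm10 (0.140 and 1.10). In in situ polyadenylated nuclei no neighbours among these 5 differed beyond their counting intervals. In standard nuclei Npat stood above Cpsf3 by a log2 ratio of 0.26 (0.014 to 0.51), and no other neighbours from Cpsf3 to Lsm11 differed beyond their intervals. Slbp thus ranked below Npat in CPM and above it per kilobase, with a gene body of 17.7 kb against 38.6 kb.

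The genes lie on 7 chromosomes (GRCm39). Introns make up 62.1% of Slbp (chr5:33792296-33809969, minus strand), 76.8% of Npat (chr9:53448247-53486866, plus), 81.9% of Casp8ap2 (chr4:32615429-32653265, plus) and 66.2% of Eri1 (chr8:35932407-35963350, minus). They make up 67.4% of Cpsf3 (chr12:21335392-21365191, plus), 61.2% of Lsm11 (chr11:45819091-45835787, minus), 47.6% of Zfp473 (chr7:44380904-44400474, minus) and 18.1% of Lsm10 (chr4:125990358-125995324, plus). Of these, Casp8ap2 and Lsm11 overlap no other annotated gene. Npat shares 36406 bp with Acat1 on the opposite strand (100 and 229 UMIs), Zfp473 shares 2649 bp with Vrk3 (82 and 195 UMIs), and Cpsf3 shares 1463 bp with Itgb1bp1 (34 and 76 UMIs). The sources used here do not give the strand setting of the STAR counting, so reads of these opposite-strand pairs may not be separable. Slbp and Eri1 overlap opposite-strand genes that held between 0 and 3 UMIs, and Lsm10 lies wholly within Gm69676 on the opposite strand, a gene of the later annotation with no row in these matrices.

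The 2 matrices were set against each other per gene, since kallisto was run against transcripts while STAR counts can take in introns. The tools also differ in how they match reads, so the ratio was not read as a share of introns. The 8 factors held 154 kallisto UMIs with polymerase and 392 in standard nuclei, so STAR gave 5.12 and 5.06 times as many. The median protein-coding gene had ratios of 4.87 (quartiles 3.46 and 7.21) and 5.41 (quartiles 3.59 and 9.23). Eri1 had the highest ratio of the factors, 9.14 from 7 kallisto UMIs and 10.2 from 17. Lsm10, whose gene has the fewest intronic bases, had the lowest, 2.67 and 3.09. Casp8ap2, with the highest intron share, was below the median gene, at 4.62 and 4.17. The order of the factors at the ends of this range was the same in both libraries, and between 11.1% and 84.4% of genes had a lower ratio than any given factor.

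The comparison of the libraries asked whether the factors were captured differently after in situ polyadenylation. Relative to the median protein-coding gene none of the 8 was called in either direction, a call being a 95% interval wholly past 2-fold. Of 13858 genes with at least 20 UMIs, 8.23% were called higher and 0.303% lower, so a count of 0 in 8 stands near the background. The median of the factors was a log2 ratio of -0.38, against 0.062 for tested protein-coding genes (quartiles -0.30 and 0.50), and 7 of 8 lay below 0. Summed over the 8 genes the relative log2 ratio was -0.30 (-0.42 to -0.18). Without the shift to the protein-coding median 7 of 8 were called lower, as were 67.3% of all tested genes.

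By member, the locus-body factors, the deepest-counted of the 8, had intervals wholly below 0, Casp8ap2 at -0.36 (-0.55 to -0.18) and Npat at -0.39 (-0.69 to -0.099). These lie just past the lower quartile of tested protein-coding genes, -0.30. The share of all tested genes below 0, or with an interval below 0, was not counted. The other 6 intervals held 0. Slbp was at -0.13 (-0.47 to 0.22), Cpsf3 at -0.12 (-0.47 to 0.22) and Eri1 at -0.41 (-0.85 to 0.012). Lsm11 was the only one above 0, at 0.15 (-0.40 to 0.68), and was at -0.18 in the kallisto matrix. Lsm10 at -1.05 (-2.38 to 0.084) and Zfp473 at -0.47 (-2.10 to 0.94) had intervals too wide to place. In the kallisto matrix Casp8ap2 (71 and 207 UMIs) was at -0.86 and Cpsf3 (14 and 39 UMIs) at -0.79, both outside the STAR interval.

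The histone mRNAs that these factors act on differed far more. The 64 replication-dependent histone genes held 13402 and 3835 UMIs, a relative log2 ratio of 2.84 (2.79 to 2.89), and 44 of 47 with at least 20 UMIs over both libraries were called higher. Genes such as H3c10 (28 and 0 UMIs) and H2ac12 (40 and 1) passed that minimum only through the in situ polyadenylated library. The count and the list median of 4.26 therefore lean upward. The median was 3.57 with at least 100 UMIs, also summed over both libraries. Genes such as H4c6 (218 and 2) and H4c14 (279 and 10) still passed only through that library, so this median can lean too. The sum over all 64 genes used no minimum. H2ac24 (140 and 253), H2ac8 (75 and 90) and H2bc6 (96 and 86) were not called. H1f3, a linker histone gene, had 3967 and 302 UMIs, a relative log2 ratio of 4.75, and made up 29.6% and 7.87% of histone UMIs. H1f4 had 2483 and 1402 UMIs (1.86), H1f2 1525 and 377 (3.05), H1f5 973 and 765 (1.38) and H1f1 705 and 166 (3.12). Core histone genes are near-identical copies, so their counts are uncertain where the counting dropped or split shared reads.

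Genes of related machinery lay close to the protein-coding median. Of 17 general cleavage and polyadenylation genes none was called, with a median of -0.12, from Nudt21 at -0.64 (49 and 156 UMIs) to Cpsf1 at 1.02 (317 and 320). Sympk, the scaffold that Cpsf3 shares between both pathways, had 455 and 646 UMIs and a relative log2 ratio of 0.53 (0.35 to 0.70). Of 15 tested partner genes, such as cofactors of Npat and cap-binding proteins, only Pou2f1 was called higher (1305 and 845 UMIs, 1.66), and the list median was 0.28, or -0.21 in the kallisto matrix. Pou2f1 encodes a transcription factor of the H2B promoter, and its kallisto UMIs ran the other way, 24 and 55. The 5 Sm proteins that the U7 snRNP shares with spliceosomal snRNPs had a median of 0.11 with none called. Medians in the kallisto matrix cover only genes with at least 20 UMIs there. For the Sm proteins that median was -0.73. It leaves out Snrpf (4 and 12 kallisto UMIs) and Snrpg (4 and 4), which were at 0.77 and 0.15 in the STAR matrix, so the 2 medians cover unlike gene sets. Of the 10 replacement histones, whose expression does not depend on replication, H2ax was called (586 and 74 UMIs, 4.02), and the median was 0.44, or -0.069 in the kallisto matrix. H2ax is known to make a stem-loop form of its mRNA beside a polyadenylated one. S phase genes (34, median 0.026, and -0.13 in the kallisto matrix) and G2/M genes (18, median -0.23) had none called.

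**Figure D2:**
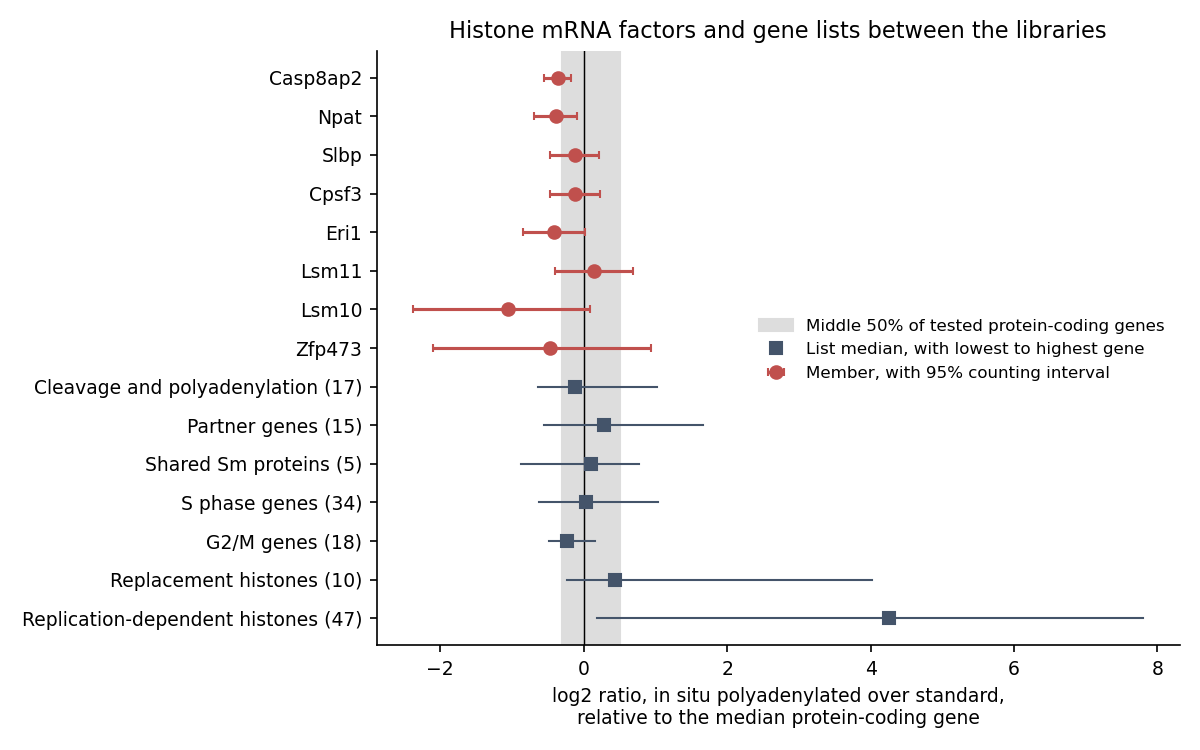
Log2 ratio of in situ polyadenylated over standard nuclei, relative to the median protein-coding gene, for each factor (red, 95% counting interval) and for gene lists (dark blue squares are medians, lines run from the lowest to the highest tested gene, number tested in brackets). The factors lie between -1.05 and 0.15, beside the grey band of the middle protein-coding genes (-0.30 to 0.50), while the histone genes have a median of 4.26. Tested genes had at least 20 UMIs summed over both libraries.

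Free RNA in droplets was gauged from barcodes with 1 to 100 kallisto UMIs, 229964 and 226358 of them. No factor was called higher or lower in nuclei than in these barcodes among 5 tested in the in situ polyadenylated library, where 0.187% of genes were called higher and 3.6% lower. Nor was any of 7 tested in the standard library, where the shares were 0.429% and 0.774%. In the standard library Casp8ap2 was nonetheless higher in nuclei, at 0.58 relative to the median protein-coding gene (0.31 to 0.85, from 207 UMIs against 250), and Slbp was lower, with 38 against 129 and a ratio of -0.91 (-1.47 to -0.38). In the in situ polyadenylated library the intervals of both held 0, at -0.33 and -0.61. How many genes had intervals apart from 0 was not counted. Summed, the 8 factors were at -0.34 (-0.65 to -0.037) in that library and at 0.086 (-0.098 to 0.27) in the standard library. Histone UMIs, on which the rankings below rest, were at -0.37 (-0.40 to -0.33) and 0.44 (0.37 to 0.50). The share of free RNA among the Slbp UMIs of nuclei was not measured.

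Whether nuclei with a factor's UMI were richer in histone UMIs was asked after thinning each nucleus to 1000 mRNA UMIs, which kept 1281 in situ polyadenylated nuclei (47 were too shallow) and all 1123 standard nuclei. Thinned nuclei held a mean of 4.32 and 0.874 histone UMIs. Of the 6 factors with UMIs in at least 20 nuclei, 1 had at least 25% more histone UMIs in nuclei with its UMI in the in situ polyadenylated library, where 1.68% of 7968 genes did, and 0 of 6 in the standard library, where 6.86% of 8165 genes did. That 1 was Lsm11, at 1.32 (1.09 to 1.58) from 21 nuclei, and it could be measured again in only 2 other settings, at 1.18 without thinning and 1.21 with single-exon histone genes, both under that bound. In the others it had a UMI in too few nuclei. For Slbp the ratio was 1.12 (0.97 to 1.29) from 43 nuclei and 1.20 (0.90 to 1.57) from 54 nuclei. The mean over 20 thinnings put Slbp at 1.13 and 1.10. Over the other settings its ratio lay between 1.03 and 1.15 with polymerase. In the standard library it ran from 0.79, thinned to 500, to 1.36, without the 5% of nuclei with the most UMIs. The Spearman correlation of the summed factors with histone UMIs was -0.019 over 1281 nuclei and 0.074 over 1123 nuclei that share their library, against 0.15 and 0.11 for S phase genes and 0.21 and 0.15 for G2/M genes.

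Thinning discards most factor UMIs, so, as a comparison chosen after seeing the data, nuclei were also split into 3 equal groups by histone UMIs per mRNA UMI and all UMIs of each tercile were summed. In in situ polyadenylated nuclei the histone share was 17.6, 40.0 and 69.0 per 10000 mRNA UMIs in the lowest, middle and highest tercile. Slbp stood at 23.03, 27.6 and 47.2 UMIs per 1000000 mRNA UMIs (mRNA CPM, from 23, 32 and 48 UMIs), a log2 ratio of highest over lowest of 1.03 (0.29 to 1.82). In standard nuclei the histone share was 2.36, 7.44 and 16.6 per 10000, and Slbp stood at 40.1, 51.2 and 58.9 (65, 88 and 77 UMIs), a log2 ratio of 0.55 (0.059 to 1.05). In both libraries the Slbp level was thus lowest in the tercile with the lowest histone share and highest in that with the highest. This share rests on a median of 8 histone UMIs per in situ polyadenylated nucleus and 3 per standard nucleus. Linker histones and core histones are ranked apart below.

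Slbp was the only 1 of 6 tested factors with an interval wholly above 0 in in situ polyadenylated nuclei, where 4.01% of 9432 other mRNA genes had one. In standard nuclei 3 of 7 had one, against 7.45% of 10299 genes: Slbp, Casp8ap2 at 0.41 (0.16 to 0.66) and Npat at 0.40 (0.0067 to 0.80). Casp8ap2 had 157, 195 and 209 mRNA CPM there, but 104 and 105 at the ends of the ranking in in situ polyadenylated nuclei. Npat was at 65.4, 77.3 and 86.5 against 47.1, 35.4 and 42.3. Cpsf3 had no interval apart from 0 in either library, at 0.18 (-0.54 to 0.91) and -0.38 (-0.91 to 0.13). Lsm11 had 8, 20 and 18 UMIs in the terciles of the in situ polyadenylated library and 22, 36 and 27 in those of the standard library, with ratios of 1.14 (-0.13 to 2.55) and 0.61 (-0.26 to 1.49). Whether the libraries differ in these ratios was not tested.

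The ranking by histone share moved with other values. S phase genes were higher in the highest than in the lowest tercile by 0.33 and 0.42 on the log2 scale, and G2/M genes by 0.37 and 0.67. Median depth was 6084, 7492 and 6738.5 UMIs over the terciles of the in situ polyadenylated library and 4520, 4673.5 and 4188 over those of the standard library. Their part in the Slbp ratio was not tested. Ranked by linker histones alone, Slbp kept intervals above 0, at 0.87 (0.11 to 1.65) and 0.51 (0.025 to 1.01). In that ranking Lsm11 also had one with polymerase, at 1.35 (0.10 to 2.74; 8, 18 and 20 UMIs), which made 2 of 6 factors there against 3.9% of genes. In standard nuclei it was the same 3 of 7, against 7.19%. Ranked by core histones, of which 251 and 607 nuclei had no UMI, it was at 0.059 (-0.70 to 0.83) and 0.45 (-0.050 to 0.95). In STAR barcodes outside the retained nuclei with at least 1000 UMIs (2379 and 6617 barcodes) it was at 0.070 (-0.87 to 1.02) and 0.22 (-0.086 to 0.52), so the relation of Slbp to histone share was not detectable there. In those standard barcodes Npat was at -0.017 (-0.28 to 0.24) and Casp8ap2 at 0.067 (-0.10 to 0.23). With core histones alone Casp8ap2 was at -0.035 (-0.29 to 0.22) in standard nuclei, so their histone relation was not seen in these settings either. In both of these standard rankings the lowest tercile had a histone share of 0. There 607 nuclei lacked core histone UMIs and 2209 of the other barcodes lacked histone UMIs. Such ties were ordered by their place in the matrix, so which of the 607 nuclei fell in the lowest core histone tercile was arbitrary. The highest terciles had shares of 4.53 and 19.5 per 10000, so the ends of both rankings still differed in histone share. Why the ratios were lower in these settings was not tested.

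**Figure D3:**
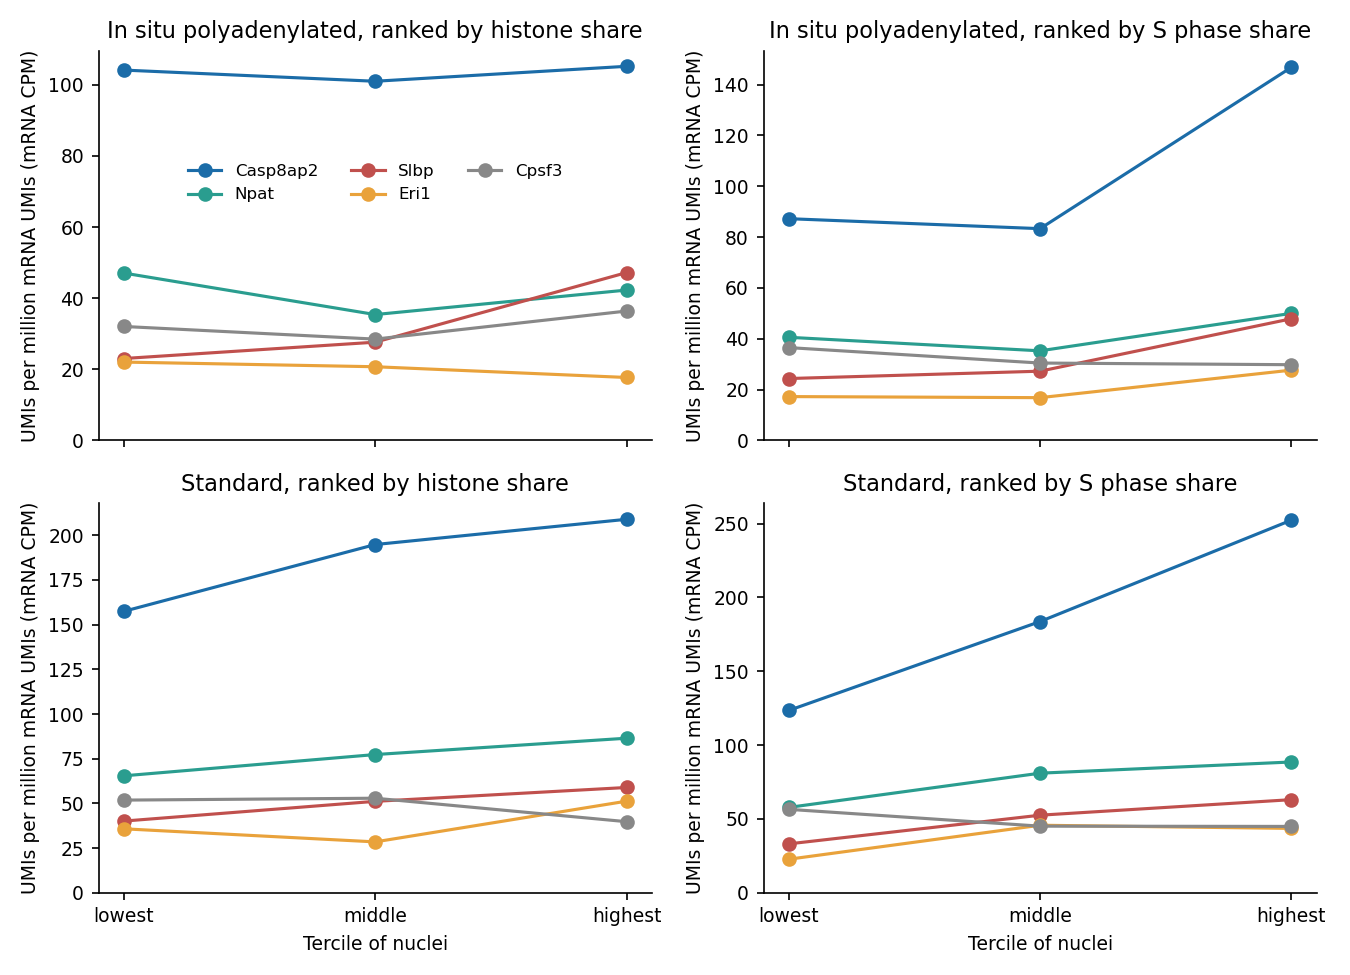
mRNA CPM of 5 factors in the lowest, middle and highest tercile of nuclei, ranked by histone share (left) or by the share of 34 S phase genes (right), in in situ polyadenylated (top) and standard (bottom) nuclei. Casp8ap2 is level at the ends of the histone ranking with polymerase (104 and 105) and highest in the top S phase tercile of both libraries (147 and 252).

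Casp8ap2 and Slbp followed S phase expression in both libraries. Nuclei were ranked as before, but by the share of 34 replication genes, such as Mcm2 and Pcna, a list without any of the 8 factors. Casp8ap2 stood at 87.2, 83.3 and 147 mRNA CPM over the terciles of in situ polyadenylated nuclei (86, 104 and 138 UMIs) and at 123, 184 and 252 over those of standard nuclei (190, 297 and 376 UMIs). The log2 ratios of highest over lowest were 0.75 (0.35 to 1.16) and 1.03 (0.78 to 1.29). Slbp stood at 24.3, 27.2 and 47.9 and at 33.1, 52.6 and 63.1, ratios of 0.98 (0.23 to 1.75) and 0.93 (0.42 to 1.45). Both genes thus had their highest level in the nuclei richest in replication transcripts, in each library.

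In standard nuclei, which held more factor UMIs, Npat and Eri1 also had intervals above 0. Npat was at 57.8, 81.0 and 88.6, a ratio of 0.62 (0.22 to 1.02), and Eri1 at 22.7, 45.8 and 43.6, a ratio of 0.94 (0.33 to 1.58). In in situ polyadenylated nuclei their ratios were 0.30 (-0.34 to 0.95) and 0.68 (-0.26 to 1.66). That made 4 of 7 tested factors in the standard library, against 8.19% of 10335 other mRNA genes, and 2 of 6 with polymerase, against 6.8% of 9230. Cpsf3, the member with a general role in polyadenylation, was at -0.29 (-1.06 to 0.46) and -0.33 (-0.81 to 0.15). Lsm11 was at 0.28 and 0.38, and Lsm10 in standard nuclei at 0.34, all with intervals that held 0. Zfp473 had 1, 2 and 3 UMIs and 10, 5 and 2 UMIs over the terciles, under the minimum of 20. Median depth was 6837, 7691 and 5965 UMIs over the S phase terciles with polymerase and 4502, 4520.5 and 4413 in the standard library, and its part was not tested. With over 1500 kallisto UMIs per nucleus, Slbp was at 0.48 with polymerase and 0.35 in standard nuclei, both lower than above. Casp8ap2 was at 0.57 and 1.253 and Npat at 0.84 and 0.52. Eri1 was at 0.25 in standard nuclei. Intervals for this setting are not given here.

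**Figure D4:**
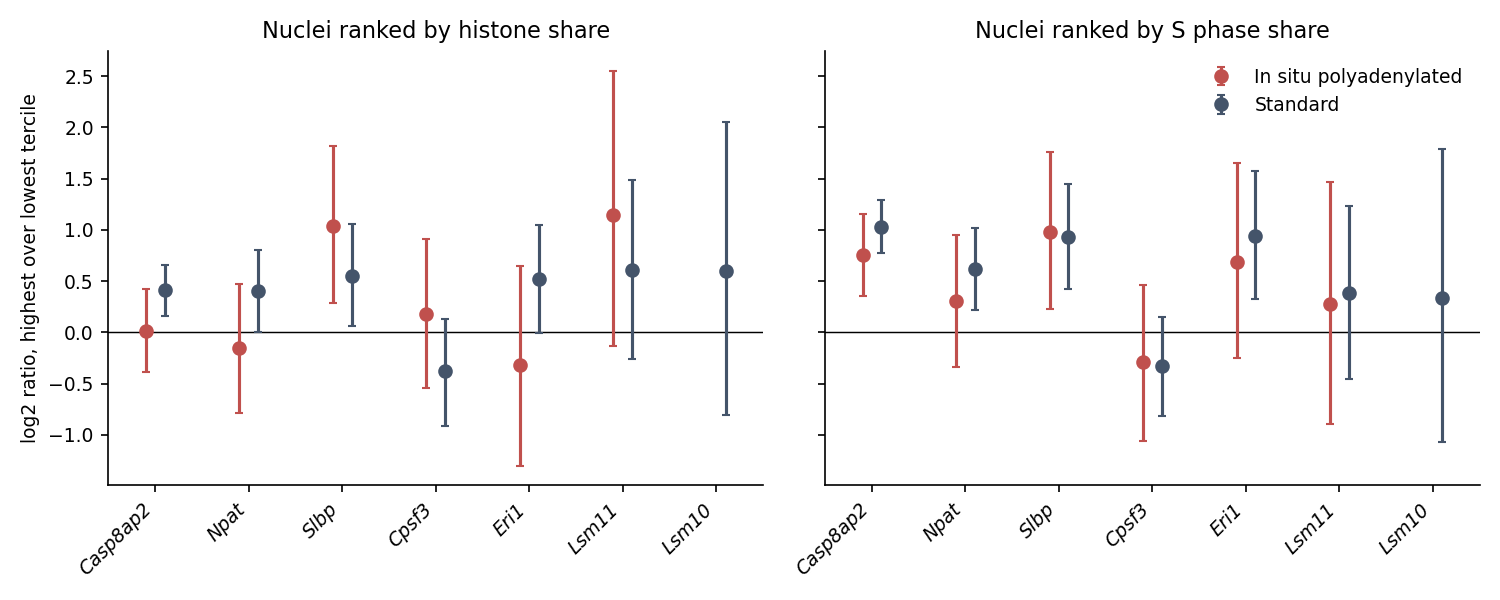
Log2 ratio of the highest over the lowest tercile of nuclei for each factor with at least 20 UMIs in the 2 terciles, ranked by histone share (left) or S phase share (right), with 95% counting intervals, in in situ polyadenylated (red) and standard (dark blue) nuclei. Slbp has an interval above 0 in all 4 rankings, and Casp8ap2 in 3 of them, the exception being 0.015 for histone share with polymerase.

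The S phase ranking was repeated in the STAR barcodes outside the retained nuclei, with the same minimum of 1000 UMIs. In the 6617 standard barcodes the same 4 of 7 factors had intervals above 0, against 6.1% of 11647 genes: Casp8ap2 at 0.80 (0.63 to 0.97), Eri1 at 0.50 (0.12 to 0.88), Slbp at 0.41 (0.10 to 0.72) and Npat at 0.30 (0.041 to 0.56). Casp8ap2 had 449, 648 and 781 UMIs over the terciles there. In the 2379 in situ polyadenylated barcodes 2 of 6 did, against 5.61% of 8539 genes: Npat at 1.51 (0.71 to 2.37; 18, 21 and 52 UMIs) and Casp8ap2 at 0.98 (0.45 to 1.53; 45, 81 and 90 UMIs). Slbp was at 0.56 (-0.30 to 1.46) there. Cpsf3 again had no interval apart from 0, at 0.39 (-0.47 to 1.28) and -0.16 (-0.46 to 0.13). These barcodes come from the same 2 libraries and are not replicates of them.

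Ranked by the share of 18 G2/M genes, 1 of 6 factors with polymerase and 1 of 7 in the standard library had an interval above 0, near the 10.8% and 7.9% of other genes that did. Casp8ap2 was at 0.55 (0.13 to 0.97) with polymerase and -0.059 (-0.31 to 0.19) without. Eri1 was at 0.77 (0.19 to 1.37) in standard nuclei and 0.36 (-0.64 to 1.37) with polymerase. The intervals of Slbp held 0, at 0.13 (-0.58 to 0.84) and 0.44 (-0.050 to 0.93), as did those of Npat, at 0.050 and 0.29.

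Across standard nuclei thinned to 1000 mRNA UMIs, the genes whose counts ran most like Slbp were Usf1 (Spearman correlation 0.13), Cobl (0.12), Usp5 (0.12), Slc16a11 (0.11) and Ndst1 (0.10), the highest of 5484 genes over 1123 nuclei of 1 library. The median was -0.0013, and in counts this sparse none of these is a finding. Of the other factors among the 5484, Cpsf3 was at 0.013, Casp8ap2 at -0.0014 and Npat at -0.024.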

How the data were processed

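The authors trimmed reads with cutadapt 3.4 and quantified them on GRCm39 with a GENCODE annotation. The deposited STAR 2.7.10a matrices hold raw whole-number UMI counts over genes and barcodes, only for some barcodes, and the sources used here do not say how these were picked. The deposited kallisto 0.48.0 and bustools 0.41.0 matrices hold estimated counts per transcript-matched gene for every barcode, from strand-aware counting, and their sums were rounded to whole numbers. Nuclei had over 750 kallisto UMIs and under 5% mitochondrial UMIs. Doublets were not removed. UMIs were summed per gene and library. Log2 ratios have 95% intervals from the exact conditional (binomial) method for a pair of Poisson counts, and shares have exact Clopper-Pearson intervals, in python with numpy and scipy. UMIs are molecules, yet these intervals leave out all variation between preparations. "mRNA" means protein-coding genes without replication-dependent histones and without Peak1, Zfp791, Lars2 and Tmem38b, which share sequence with rRNA. Levels per mRNA UMI are for use within a library. Genes were matched by identifier to GENCODE M39 of the same build.

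The members and lists were chosen with earlier results of these data known. Named beside the 8 factors were genes called in a list, the 5 histone genes with the most UMIs and the 5 genes most correlated with Slbp. Rbfox3, Pecam1, Vim, Myod1, Nudt21, Cpsf1 and Sympk were picked after their values were seen, as were all comparisons over terciles of nuclei and the mean over 20 thinnings. The ratio, thinning and terciles code was tested on simulated data. Alternatives covered the matrix, the choice of barcodes, scaling, gene minima, thinning depth and histone list.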

Additional observations from a re-analysis of the deposited data

Results flagged for a closer look

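UMIs of the 8 factors were also present in barcodes that the comparison of the libraries did not use, those deposited with the STAR matrix but outside the retained nuclei. They numbered 563 over 2463 barcodes of the in situ polyadenylated library and 4664 over 7351 barcodes of the standard library, so in the latter more factor UMIs lay outside the retained nuclei than within them. The factors made up 241 per 1000000 mRNA UMIs in these barcodes against 248 in the retained in situ polyadenylated nuclei, and 441 against 427 in the standard library. Casp8ap2 led there too, with 223 and 1961 UMIs, and Zfp473 was last, with 3 and 26.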

How the results depend on the processing

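Of 366 alternative values, 306 stayed within the interval of the reported value or within 1.5 times a reported count, 58 moved and 2 reversed. A reversal was counted only for tercile ratios with an interval apart from 0 and for histone ratios at or above the 25% bound. Other changes of sign were counted among the 306 or the 58. Examples in the kallisto matrix are Lsm11 (0.15 to -0.18) and the Sm proteins (0.11 to -0.73, the latter without Snrpf and Snrpg). No paired analysis was possible because there was only 1 library in a group. The count of 0 factors called between the libraries held under 11 of 12 alternatives, though minima of 1 and 100 UMIs could not have changed it. In CPM with no shift it was 7, the factors' median was -2.30, and list medians were -2.05 for cleavage and polyadenylation, -1.64 for partner genes, -1.81 for Sm proteins, -1.90 for S phase, -2.15 for G2/M, -1.48 for replacement histones, -1.48 for myoblast markers, -0.043 for other cell types and 2.33 for replication-dependent histones, by construction of the scaling. In the kallisto matrix medians cover only genes with at least 20 UMIs there. They were -0.21 for partner genes, -0.13 for S phase, -0.34 for G2/M, -0.73 for Sm proteins and -0.069 for replacement histones. They were -0.11 for myoblast markers, without Myf5, Myog and Pax7, and 4.64 for histones. For other cell types only Pecam1 (10 and 35 UMIs) passed, at -1.12. The STAR median of other cell types, which had 2 tested genes in the main setting, was 1.41 with a minimum of 500 UMIs. It was 1.31 over all STAR barcodes and 1.30 over those past 750 STAR UMIs. That of cleavage genes was -0.054 with a minimum of 1500.

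The 1 factor with at least 25% more histone UMIs with polymerase became 0 in all 8 alternatives, but this factor, Lsm11, was measured again in only 2 of them (1.18 and 1.21), lacked nuclei in 5, and in 1 only the bound was raised, and the 0 in standard nuclei became 3 when thinned to 500 and 1 without the 5% of nuclei with the most UMIs. For histone share with polymerase, Slbp was at 0.059 with core histones only and 0.070 in the other STAR barcodes. For S phase share in standard nuclei it was at 0.41 in the other barcodes and 0.35 with over 1500 kallisto UMIs. The histone ratio of Casp8ap2 in standard nuclei reversed to -0.035 with core histones only, and that of Npat to -0.017 in the other barcodes. In both rankings the lowest tercile held none of the ranked histone UMIs. The causes were not tested. Depth limits Lsm10 and Zfp473 throughout, and with 1 library per group no difference between preparations can be told from chance.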
